A study of Danio rerio with 4 samples.

Results

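This account covers the genes of the Wnt signalling pathway that encode its ligands, receptors, secreted inhibitors and potentiators, and the first intracellular and nuclear components, measured by RNA sequencing in cells sorted from zebrafish embryos. The members were chosen by gene symbol: names that begin with wnt or fzd and a digit, with sfrp, dkk, axin, rspo or tcf7, or that equal frzb, lef1, wif1, lrp5, lrp6, ror1, ror2, ryk, ctnnb1 or ctnnb2. The table of 25873 Ensembl gene IDs held 70 such IDs, and the 66 with at least 10 counts in at least 2 libraries were kept. Every embryo carried Tg(nkx2.5:ZsYellow), a transgene that labels cells with a yellow fluorescent protein under control of nkx2.5, the gene of a heart and pharyngeal transcription factor, on a background given only as a laboratory strain. The embryos were at 14 to 16 somites, a stage at which the heart is being formed from bilateral mesoderm. Fluorescent cells, which the labels call cardiopharyngeal progenitors and cardiomyocytes, are the positive group, and non-fluorescent cells sorted from the same embryos are the negative group. Each group had 2 libraries. The labels do not name the cell types of the negative group. Markers of many tissues were present in it, and neither group is a single cell type.

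Wnt proteins are secreted lipid-modified ligands that bind Frizzled receptors. With the co-receptors Lrp5 and Lrp6 they block the Axin-based complex that destroys β-catenin, which then enters the nucleus and acts with Tcf and Lef factors on target genes. Ligands such as Wnt11 and Wnt5 act in many settings through a β-catenin-independent branch, with Frizzled, Ror and Ryk receptors, that guides cell polarity and movement. Sfrp, Frzb and Wif1 proteins bind Wnt ligands. The Dkk proteins Dkk1 and Dkk2 bind Lrp5 and Lrp6, and R-spondins raise the amount of receptor at the cell surface. In vertebrate heart formation β-catenin signalling has stage-dependent effects, and Wnt11 ligands are known for roles in cardiac differentiation and in the movement of heart precursors.

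Levels are given as TPM, a unit scaled to transcript length and to the same total in each library, and differences as the log2 fold change of positive over negative cells fitted to the counts with edgeR. The standard error (SE) is that of the log2 fold change, and a gene was called at a Benjamini-Hochberg adjusted p under 0.05 over the 19084 genes tested. All 66 kept members were among the genes tested. Positive cells differed from negative cells in many Wnt genes, and in both directions. Of the 66 members, 11 were called higher in positive cells and 20 were called lower, or 16.7% and 30.3%. Among all genes tested, 17.1% were called, with 9.02% higher and 8.07% lower. The median log2 fold change of the members was -0.29 against -0.0087 for all genes tested. It was -0.020 over the 59 members with at least 1 CPM in 2 libraries, and -0.50 without positive replicate 1. On the TMM-scaled count scale, the groups did not overlap with positive cells above for 20 members and below for 31, while the shares among all genes tested were 27.9% and 30.3%. The lower calls were mostly ligands, 12 of 23 with 2 ligands higher, and the secreted inhibitors had 5 of 12 lower and 2 higher. Frizzled genes had 4 of 14 higher and 2 lower.

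**Figure D1:**
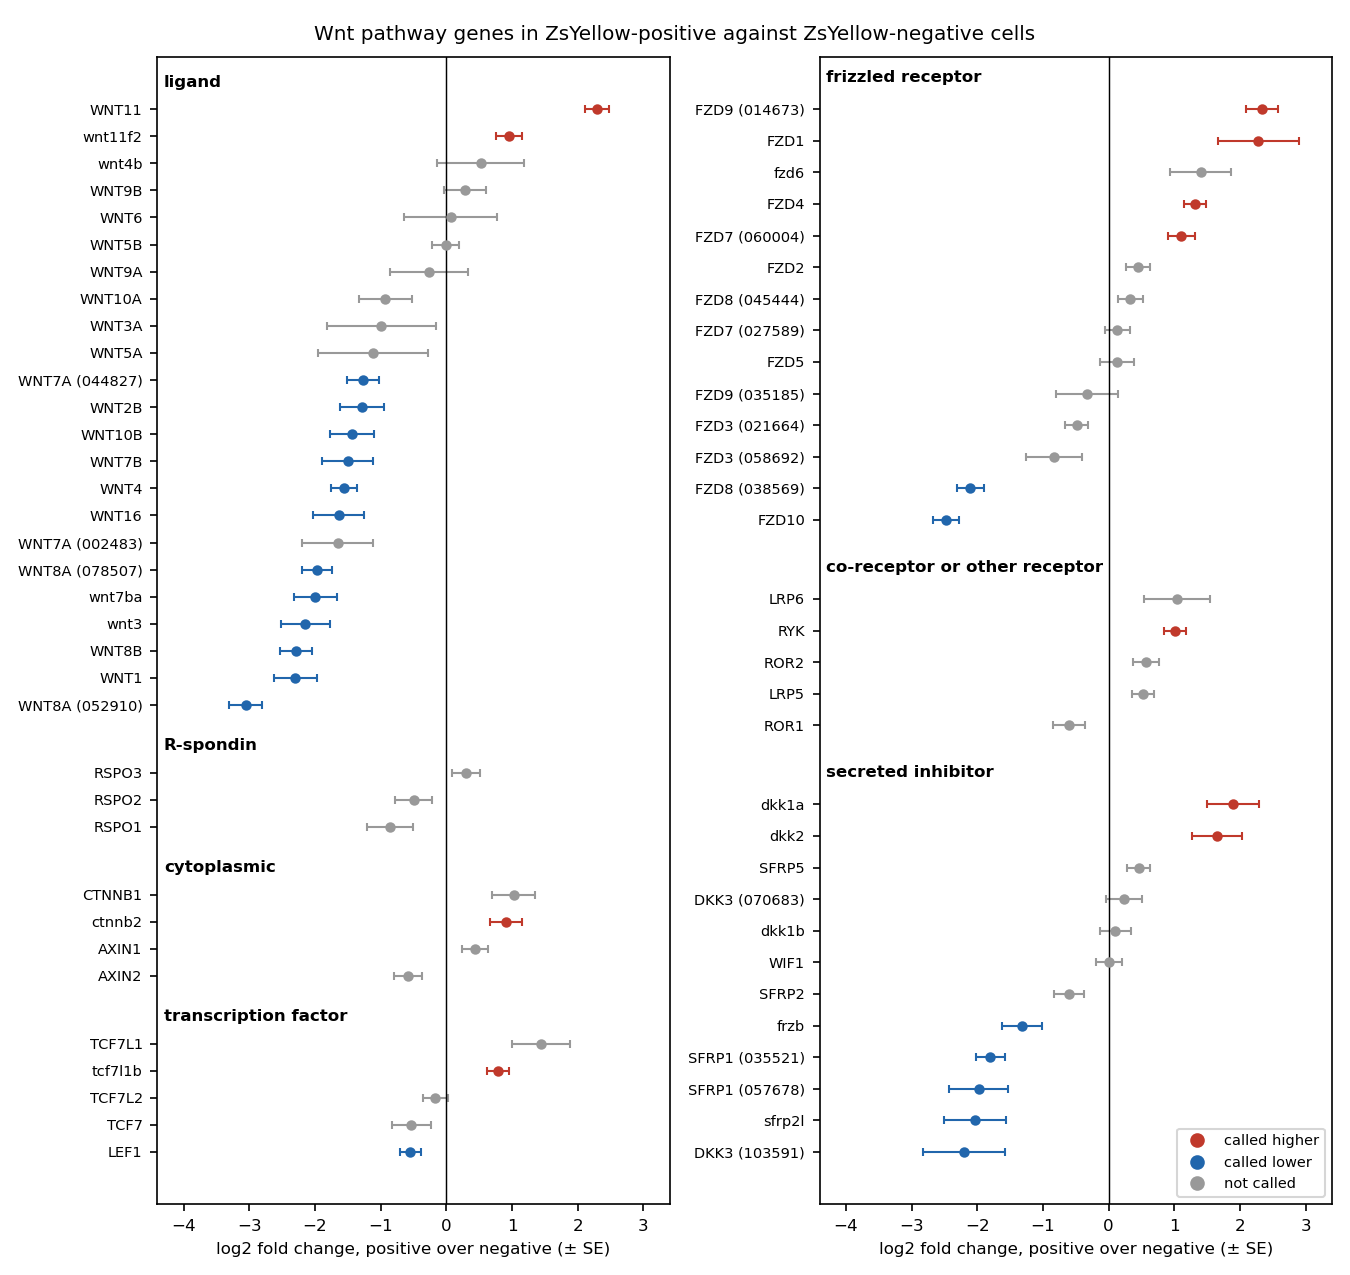
Log2 fold change of positive over negative cells for the 66 Wnt genes, grouped by role, with bars of 1 SE from the edgeR fit on 2 libraries per group; red points were called higher, blue points lower and grey points not called. Where a name belongs to more than 1 gene ID, the last 6 digits of the ID are in brackets. Most ligands lie to the left of 0, whereas WNT11 lies at 2.29.

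Library totals ran from 31996733 to 40133331 counts, and the labels do not say whether the 2 libraries of a group came from separate pools of embryos, so the p-values measure the spread between these libraries. Marker genes were compared between the groups to describe the sort. The marker lists were chosen with earlier results of these data known, so they are no independent check of it. All 13 cardiopharyngeal marker IDs were called higher in positive cells, with summed levels of 1521 to 1558 TPM in the positive and 187 to 199 TPM in the negative libraries. These IDs and sums include nkx2.5 itself, which controls the label used for sorting, so its call is no separate check of the sort. Of the 8 cardiomyocyte IDs tested, 7 were called higher and 1, a minor ID named MYH6, lower. Summed over all 10 cardiomyocyte IDs, the level was 6508 to 7297 TPM in the positive and 1105 to 1442 TPM in the negative libraries. All 8 presomitic and tailbud markers were called lower, with sums of 52.7 to 63.8 TPM in the positive and 552 to 575 TPM in the negative libraries, as were 11 of 12 neural IDs, with sums of 351 to 360.4 TPM in the positive and 827 to 987 TPM in the negative libraries. Of 6 endothelial markers, 5 were called higher, with sums of 577 to 798 TPM in the positive and 418 to 509 TPM in the negative libraries. The epidermis and endoderm lists were not clearly separated. Of 5 epidermis IDs, 1 was called higher and 1 lower, with sums of 1111 to 1309 TPM against 927 to 1295 TPM. Of 5 endoderm IDs, 1 was called higher and 1 lower, with sums of 30.3 to 39.2 TPM against 31.6 to 32.1 TPM. Neural crest IDs were called lower for 3 of 7, with 1 higher. Their sums were 60.0 to 74.0 TPM in the positive and 121 to 141 TPM in the negative libraries. Notochord IDs were called lower for 4 of 6, with sums of 23.9 to 34.3 TPM against 67.1 to 69.7 TPM. In bulk samples such as these, fewer cells of a type and less RNA per cell cannot be told apart.

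The ligand that dominated positive cells was Wnt11. WNT11 (ENSDARG00000014796), a gene for which RefSeq lists wnt11r as another name, had 174 and 208 TPM in the positive libraries and 39.8 and 38.9 TPM in the negative libraries. Both positive libraries were more than 4 times as high as either negative library, and the groups did not overlap. The log2 fold change was 2.29 (SE 0.178, adjusted p 6.96e-05). Its relative wnt11f2 (ENSDARG00000004256), known as silberblick for its role in gastrulation movements, had 23.5 and 30.9 TPM in the positive libraries and 13.5 and 14.7 TPM in the negative libraries. The positive libraries were again both above the negative ones, with a log2 fold change of 0.96 (SE 0.193, adjusted p 0.0093). The call of wnt11f2 was lost without negative replicate 1, at 0.81, while WNT11 was called in each fit run. Here and below, each fit run means the fit with all libraries and the 12 alternative fits. A crossed replicate block, described at the end, was not read for single genes. These 2 genes were the only ligands called higher.

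Summed over the 23 ligand genes, the level was 248 to 293 TPM in the positive and 165 to 189 TPM in the negative libraries. WNT11 alone made up 70.1% and 71.1% of that sum in positive cells, and 21.1% and 23.5% in negative cells. Together with wnt11f2 the share was 79.5% and 81.6% in positive cells, and 28.2% and 32.4% in negative cells. By mean level in positive cells WNT11 was followed by wnt11f2, WNT5B and WNT4, but the ranges of wnt11f2 and WNT5B overlapped. In negative cells WNT11 was also first, and WNT5B, WNT4 and both WNT8A genes came next, ahead of wnt11f2; WNT4 and the WNT8A gene ENSDARG00000078507 overlapped in range there. Shares were taken of TPM sums within a library and were not tested.

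**Figure D2:**
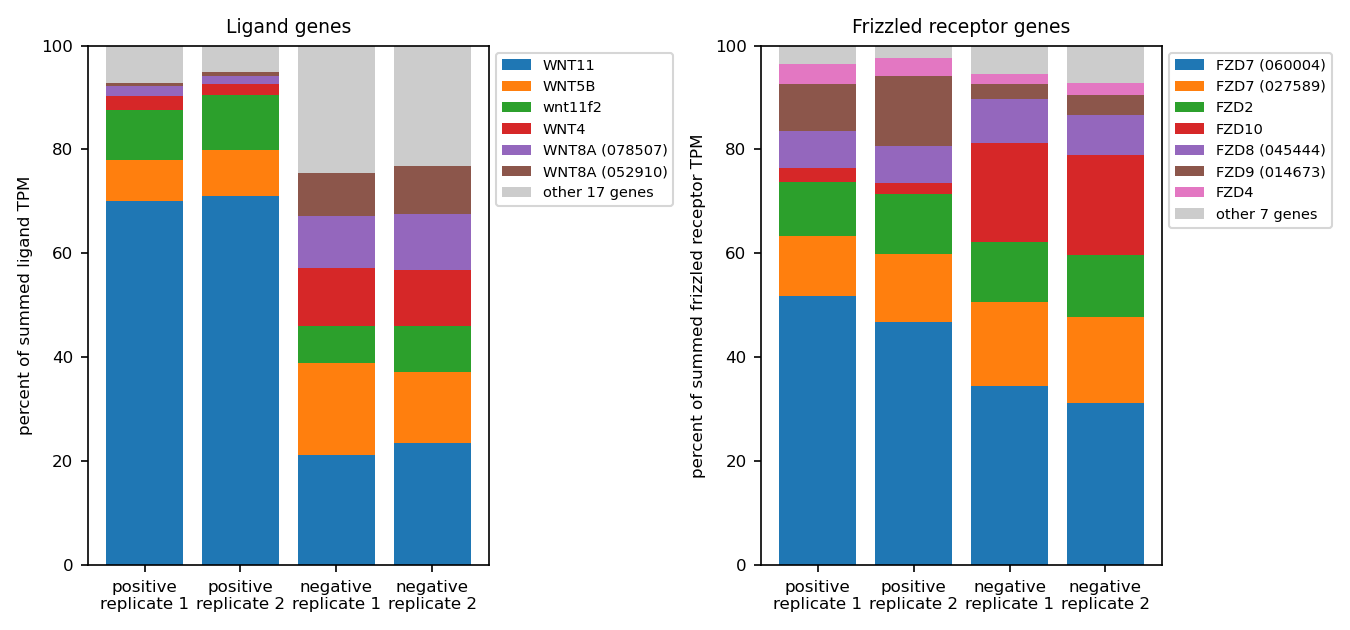
Share of the summed TPM of the 23 ligand genes (left) and of the 14 Frizzled genes (right) taken by each gene in each of the 4 libraries, as stacked bars that add to 100 percent; digits in brackets are the end of the gene ID. WNT11 takes 70.1% and 71.1% of ligand TPM in the positive libraries, and FZD10 takes 19.2% and 19.2% of Frizzled TPM in the negative libraries.

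Both WNT8A genes were lower in positive cells. The largest decrease of any member was that of the WNT8A gene ENSDARG00000052910, which had 1.48 and 2.17 TPM in the positive libraries and 15.6 and 15.2 TPM in the negative libraries and a log2 fold change of -3.05 (SE 0.253, adjusted p 9.56e-05). In the shorter form used from here, positive replicates 1 and 2 are set against negative replicates 1 and 2. The other WNT8A gene, ENSDARG00000078507, had 4.81 and 4.52 TPM against 19.1 and 17.9 TPM, with a log2 fold change of -1.97 (SE 0.228, adjusted p 0.000511). Wnt8a acts in mesoderm patterning and posterior growth. RefSeq places wnt8a and wnt8-2 next to each other, with no coding gene between them, on assembly GRCz12tu, and counting may have divided reads between such similar neighbours. Neither gene had a positive library near the level of a negative one. Presomitic and tailbud markers were lower in the same libraries, and their part in these values was not tested.

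Of the other ligands called lower, 7 are known from neural tissue, among other places; they were grouped after their values were seen. WNT1, expressed at the midbrain-hindbrain boundary and in the dorsal neural tube, had 0.817 and 0.868 TPM in the positive libraries and 4.65 and 3.79 TPM in the negative libraries, with a log2 fold change of -2.30 (SE 0.325, adjusted p 0.00147). WNT10B, which neighbours wnt1 on GRCz12tu with no coding gene between them, had 0.888 and 1.01 TPM against 2.89 and 2.31 TPM and a log2 fold change of -1.43 (adjusted p 0.0185). The brain ligand WNT8B had 0.760 and 0.913 TPM against 4.27 and 4.03 TPM, with a log2 fold change of -2.29 (SE 0.244, adjusted p 0.00034). In each of these 3 genes the groups were well separated. The neural ligand wnt3 had 0.506 and 0.787 TPM against 3.39 and 2.42 TPM and a log2 fold change of -2.15 (SE 0.372, adjusted p 0.00429). Wnt7 genes, known from the developing nervous system, were low in both groups: wnt7ba had 1.16 and 1.37 TPM against 5.51 and 4.62 TPM and WNT7A (ENSDARG00000044827) had 1.27 and 1.52 TPM against 3.87 and 2.99 TPM. Their log2 fold changes were -2.00 (SE 0.328, adjusted p 0.00323) and -1.27 (SE 0.244, adjusted p 0.00724), and that of WNT7B was -1.50 (adjusted p 0.0278). All 12 neural marker IDs had a lower mean level in positive cells, and 11 were called, which was not tested as a cause.

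Of the remaining lower ligands, WNT4 was the most abundant. WNT4, known in mammals for its role in kidney development, had 6.84 and 5.93 TPM in the positive libraries and 20.9 and 17.5 TPM in the negative libraries, with a log2 fold change of -1.56 (SE 0.202, adjusted p 0.000899). WNT2B had 3.88 and 2.21 TPM against 8.04 and 7.12 TPM and a log2 fold change of -1.29 (adjusted p 0.0277). WNT16, a somitic ligand required in zebrafish for the specification of blood stem cells, had 1.90 and 0.852 TPM against 4.86 and 3.68 TPM and a log2 fold change of -1.64 (adjusted p 0.0187). The groups did not overlap in any of these 3. Pronephros markers were called lower for 5 of 5 IDs, with sums of 8.61 to 10.957 TPM in the positive and 31.6 to 37.8 TPM in the negative libraries. Somite and muscle markers were called lower for 5 of 6 IDs, with sums of 98.9 to 136 TPM in the positive and 613 to 681 TPM in the negative libraries, and blood markers for 4 of 6, with 1 higher and sums of 651 to 775 TPM in the positive and 2271 to 2350.0 TPM in the negative libraries. The part of these cells in the ligand values was not tested. Of the 12 lower ligands, 7 kept their call without either negative library and 5 did not keep it in at least 1 of those fits. Without negative replicate 1 the lost calls were WNT2B (-1.29), WNT16 (-1.56), WNT10B (-1.36), WNT7A (-1.17) and WNT7B (-1.32). Without negative replicate 2 they were WNT2B (-1.27), WNT16 (-1.70), WNT10B (-1.49) and WNT7B (-1.65), the last of which was also lost without positive replicate 2 (-1.33) and with the DESeq2 Wald test (-1.49). In these fits without a negative library the log2 fold changes stayed close to those with all libraries. With 1 negative library the spread is estimated from the positive pair, and p-values rise or fall with that estimate. Over all 12 alternative fits the sizes varied more. WNT16 ran from -2.30 to -1.15, WNT2B from -1.79 to -0.88 and WNT7B from -1.65 to -0.62.

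**Figure D3:**
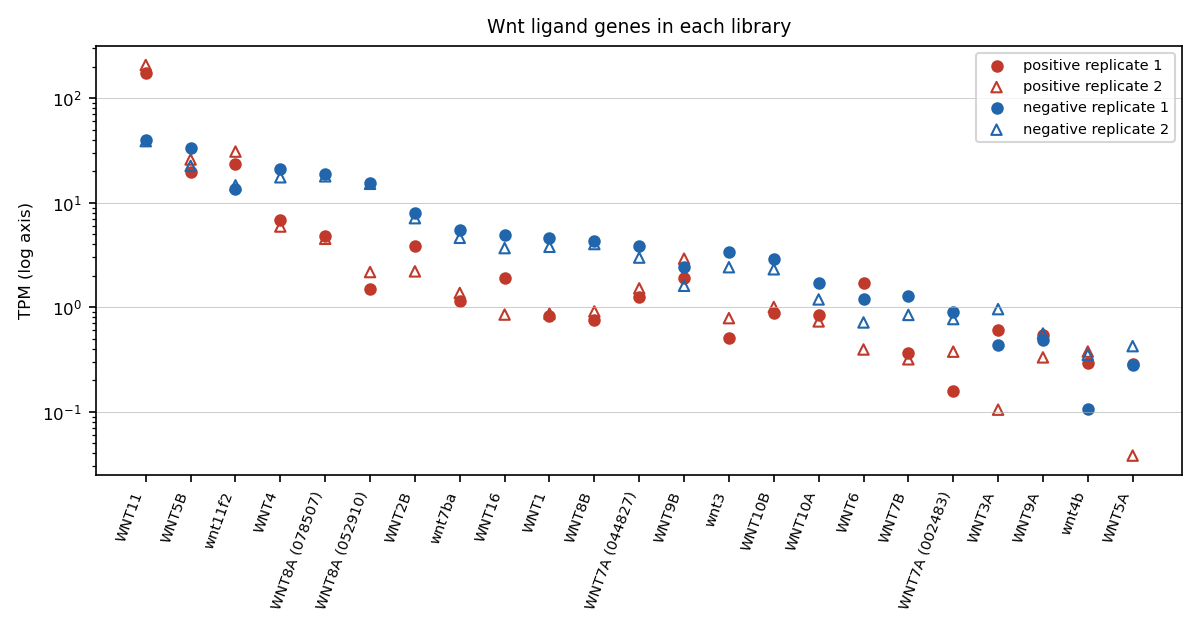
Level of each of the 23 ligand genes in the 4 libraries, in TPM on a log axis, ordered by mean level; red marks are positive libraries, blue marks negative libraries, filled circles replicate 1 and open triangles replicate 2. Only WNT11 and wnt11f2 have both red marks above both blue marks, and 14 genes have both below.

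The other 9 ligands were not called. WNT5B, the zebrafish pipetail gene of convergence and tail extension, was the most abundant of them, with 19.7 and 26.0 TPM in the positive libraries and 33.7 and 22.5 TPM in the negative libraries and a log2 fold change of -0.01 (SE 0.205, adjusted p 0.978). Its groups overlapped. WNT9B had 1.92 and 2.92 TPM against 2.43 and 1.61 TPM, and WNT10A 0.844 and 0.733 TPM against 1.72 and 1.19 TPM, with log2 fold changes of 0.28 (adjusted p 0.611) and -0.93 (adjusted p 0.161). The rest, WNT6, WNT3A, WNT9A, wnt4b, WNT5A and the second WNT7A gene (ENSDARG00000002483), lay below 2 TPM in each library, with log2 fold changes from -1.66 for that WNT7A gene to 0.52 for wnt4b. WNT5A stood at 13 and 2 counts in positive cells and 13 and 21 in negative cells, and WNT3A at 15 and 3 counts in positive cells and 11 and 26 in negative cells. At such counts a difference of moderate size is not detectable. The members nearest to the selection limit of 10 counts in 2 libraries were WNT5A, WNT9A, WNT3A, the DKK3 gene ENSDARG00000103591 and wnt4b, the last with 16 and 24 counts in positive and 6 and 21 in negative cells. Below the limit, wnt2 had 3 and 4 counts in positive and 14 and 9 in negative cells, and wnt2ba 1 and 6 against 4 and 9. Also not kept, wnt6a had 7 and 2 counts against 1 and 4, and RSPO4 0 and 0 against 0 and 1.

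Frizzled genes were called in both directions. The most abundant Frizzled gene was FZD7 (ENSDARG00000060004), a receptor of gastrulation movements, with 355 and 378 TPM in the positive libraries and 212 and 137 TPM in the negative libraries. Both positive libraries were above both negative ones, and the log2 fold change was 1.11 (SE 0.205, adjusted p 0.00599), or 0.91 (adjusted p 0.0659) and not called without negative replicate 2. The other FZD7 gene (ENSDARG00000027589) had 79.4 and 107 TPM against 99.9 and 73.2 TPM, where the groups overlapped, with a log2 fold change of 0.13 (SE 0.190, adjusted p 0.709). The difference between the 2 paralogs was not tested.

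FZD9 (ENSDARG00000014673) had the largest increase among receptors, from a low level in negative cells. It had 62.4 and 109.9 TPM in the positive libraries and 17.2 and 16.9 TPM in the negative libraries, with a log2 fold change of 2.34 (SE 0.245, adjusted p 0.000313), and was called in each fit run. The positive libraries differed from each other, replicate 2 being the higher, but neither came near the negative ones. A second FZD9 gene (ENSDARG00000035185) was below 1 TPM in each library and not called. FZD4, a receptor for Wnt ligands and for Norrin that acts in blood vessel growth, had 26.1 and 28.4 TPM in the positive libraries and 11.9 and 10.3 TPM in the negative libraries. Both positive libraries were more than 2 times as high as either negative one, with a log2 fold change of 1.32 (SE 0.164, adjusted p 0.000733), and FZD4 was called in each fit run. Endothelial markers were higher in the same libraries, and their part in the FZD4 value was not tested. FZD1 was at a low level and unevenly expressed, with 3.84 and 1.05 TPM against 0.521 and 0.513 TPM. Its log2 fold change of 2.28 (SE 0.615, adjusted p 0.034) rested on positive replicate 1: without that library it was 1.00 (adjusted p 0.294). The FZD1 call was also lost without negative replicate 1 (2.20) and without negative replicate 2 (2.37), and, by limma, on the scales log2(TPM + 1) (1.06) and log2(TPM + 0.1) (1.79).

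The 2 Frizzled genes called lower were FZD10 and 1 of the 2 FZD8 genes. FZD10, expressed in the dorsal neural tube and tailbud, was the second most abundant Frizzled in negative cells and the seventh in positive cells. It had 18.6 and 16.8 TPM in the positive libraries and 118 and 84.7 TPM in the negative libraries, with a log2 fold change of -2.48 (SE 0.199, adjusted p 8.12e-05). FZD8 (ENSDARG00000038569), of a pair known from forebrain patterning, had 3.27 and 3.91 TPM against 15.4 and 15.8 TPM and a log2 fold change of -2.11 (SE 0.204, adjusted p 0.000209). The values of both genes were far apart between groups, and both were called in each fit run. The other FZD8 gene (ENSDARG00000045444) was at a higher level, 48.5 and 57.4 TPM against 51.9 and 34.3 TPM, and was not called at 0.33 (adjusted p 0.295). FZD2 had 71.4 and 93.0 TPM against 70.2 and 52.6 TPM and was also not called, at 0.44 (adjusted p 0.138). The remaining uncalled Frizzled genes, both FZD3 genes, FZD5 and fzd6, were below 10 TPM in each library. The FZD3 gene ENSDARG00000021664 had 6.22 and 5.55 TPM against 8.81 and 7.996 TPM, with a log2 fold change of -0.49 (adjusted p 0.101), and FZD5 had 4.05 and 4.93 TPM against 5.08 and 3.33 TPM, with 0.13 (adjusted p 0.797). The groups of FZD5 overlapped. Summed over the 14 genes, Frizzled level was 686 to 809.7 TPM in the positive and 441 to 614 TPM in the negative libraries.

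**Figure D4:**
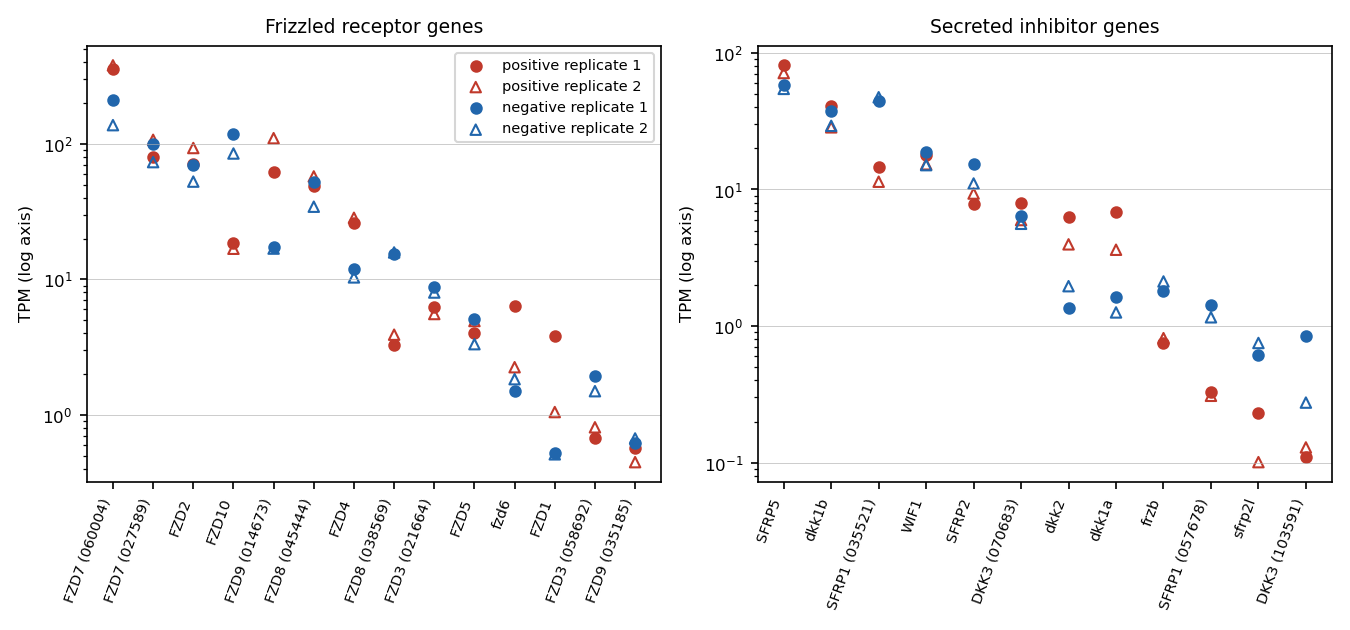
Level of the 14 Frizzled genes (left) and the 12 secreted inhibitor genes (right) in the 4 libraries, in TPM on a log axis, with red marks for positive and blue marks for negative libraries, filled circles for replicate 1 and open triangles for replicate 2. Examples with positive marks above negative ones are the FZD7 gene ENSDARG00000060004, the FZD9 gene ENSDARG00000014673, FZD4, dkk2 and dkk1a. Examples with positive marks below are FZD10, the FZD8 gene ENSDARG00000038569 and both SFRP1 genes. Marks are also separated for other genes, among them FZD2 and SFRP5 (above) and SFRP2 (below), which were not called. Digits in brackets are the end of the gene ID.

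Of the 5 co-receptor and non-Frizzled receptor genes, 1 was called. RYK, a pseudokinase receptor that binds Wnt5 and other ligands, had 29.7 and 29.8 TPM in the positive libraries and 16.0 and 14.3 TPM in the negative libraries. The positive libraries were nearly identical and both well above the negative ones, with a log2 fold change of 1.01 (SE 0.165, adjusted p 0.00319) that was called in each fit run. ROR2, a receptor tyrosine kinase for Wnt5 ligands, had 16.6 and 18.6 TPM against 14.8 and 9.50 TPM, and LRP5 had 9.56 and 11.8 TPM against 8.26 and 6.84 TPM. Their groups did not overlap, but at 0.57 (adjusted p 0.081) and 0.53 (adjusted p 0.0653) neither was called. ROR1 had 1.91 and 2.01 TPM against 3.70 and 2.39 TPM and was not called at -0.60 (adjusted p 0.133). LRP6 was at 2.08 and 0.716 TPM against 0.714 and 0.684 TPM, and its log2 fold change of 1.04 (adjusted p 0.206) came with a positive replicate 1 that was well above the other 3 libraries.

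Secreted inhibitors were called in both directions. The Dkk genes dkk1a and dkk2, whose products act on Lrp5 and Lrp6, were higher in positive cells. For dkk1a the values were 6.81 and 3.62 TPM in the positive libraries and 1.63 and 1.26 TPM in the negative libraries, and for dkk2 they were 6.33 and 3.96 TPM against 1.35 and 1.96 TPM. Positive libraries lay above negative ones in both, with log2 fold changes of 1.89 (SE 0.398, adjusted p 0.0114) and 1.65 (SE 0.387, adjusted p 0.0185). Without negative replicate 1 neither was called (1.99 and 1.33), nor was dkk1a without negative replicate 2 (1.81). The more abundant paralog dkk1b, the organizer inhibitor of head formation, had 40.8 and 28.5 TPM against 37.5 and 29.2 TPM. Its groups overlapped and it was not called, at 0.10 (adjusted p 0.823). Of the DKK3 genes, which form a divergent branch of the family, ENSDARG00000070683 had 7.90 and 5.97 TPM against 6.43 and 5.61 TPM and was not called, at 0.23 (adjusted p 0.64). The other, ENSDARG00000103591, was the least expressed inhibitor, at 7 and 10 counts in positive cells and 59 and 20 in negative cells. It was called lower at -2.20 (SE 0.630, adjusted p 0.043), but not without negative replicate 1 (-1.29), with the DESeq2 Wald test (-2.20) or with limma on log2(TPM + 1) (-0.46) and log2(TPM + 0.1) (-1.44).

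Sfrp-type inhibitors, which carry a Frizzled-like Wnt-binding domain, were lower where they were called. SFRP1 (ENSDARG00000035521) had 14.6 and 11.4 TPM in the positive libraries and 44.2 and 47.3 TPM in the negative libraries. The negative libraries were at least 3 times as high as either positive library, and the log2 fold change of -1.80 (SE 0.219, adjusted p 0.000664) was called in each fit run. A second SFRP1 gene (ENSDARG00000057678) had 0.330 and 0.309 TPM against 1.42 and 1.16 TPM and a log2 fold change of -1.98 (adjusted p 0.0162). The genes frzb, at 0.747 and 0.816 TPM against 1.81 and 2.12 TPM, and sfrp2l, at 0.230 and 0.101 TPM against 0.611 and 0.752 TPM, had log2 fold changes of -1.32 (adjusted p 0.0172) and -2.03 (adjusted p 0.0171). These 3 genes are close to or below 2 TPM throughout, and their calls were lost without negative replicate 2 (ENSDARG00000057678 -2.02, frzb -1.09, sfrp2l -1.77). The calls of ENSDARG00000057678 (-1.92) and sfrp2l (-2.24) were also lost without negative replicate 1. With limma on log2(TPM + 1), which shrinks changes at low levels, the 3 values were -0.79, -0.73 and -0.53, and all were called.

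The most abundant inhibitor in both groups was SFRP5, and it was not called. SFRP5 had 81.0 and 71.2 TPM in the positive libraries and 58.3 and 54.5 TPM in the negative libraries, with a log2 fold change of 0.46 (SE 0.178, adjusted p 0.119). Its positive libraries were above the negative ones by a small margin, and without positive replicate 2 it was called, at 0.61. SFRP2, at 7.80 and 9.34 TPM against 15.4 and 11.1 TPM, and WIF1, at 17.8 and 15.3 TPM against 18.7 and 15.1 TPM, were not called either, with log2 fold changes of -0.60 (adjusted p 0.112) and 0.00 (adjusted p 0.993). Summed over the 12 inhibitor genes, the level was 151 to 185 TPM in the positive and 170.3 to 188 TPM in the negative libraries, so the sum overlapped between groups while its makeup differed. SFRP5 took 43.9% and 47.3% of it in positive cells, and SFRP1 (ENSDARG00000035521) took 23.5% and 27.8% in negative cells.

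None of the 3 R-spondin genes was called by edgeR with all libraries, and none was called by DESeq2 or limma. Unadjusted edgeR p-values with all libraries were 0.193 for RSPO3, 0.117 for RSPO2 and 0.0386 for RSPO1. Without positive replicate 1, 1 R-spondin gene other than RSPO3 was called lower. RSPO3, the most abundant, had 12.5 and 18.8 TPM in the positive libraries and 15.002 and 11.3 TPM in the negative libraries, with a log2 fold change of 0.30 (SE 0.213, adjusted p 0.395). Its value depended on the positive library used, at 0.54 without positive replicate 1 and 0.05 without positive replicate 2. RSPO2 had 5.10 and 2.74 TPM against 5.31 and 4.77 TPM and a log2 fold change of -0.50, and RSPO1 had 0.422 and 0.603 TPM against 1.07 and 0.777 TPM and a log2 fold change of -0.85.

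Inside the cell, 1 of the 2 β-catenin genes was called higher in positive cells. CTNNB1, the main β-catenin gene, had the highest mean level of the members over the 4 libraries, with 583 and 291 TPM in the positive libraries and 249 and 197 TPM in the negative libraries; in positive replicate 2 the FZD7 gene ENSDARG00000060004 was higher, at 378 TPM. Positive replicate 1 was 2 times as high as positive replicate 2, which in turn was only moderately above the negative libraries. The log2 fold change of 1.02 (SE 0.322, adjusted p 0.0615) was not called, was 0.38 without positive replicate 1, and was 1.48 and called without positive replicate 2. CTNNB1 was called with no low-count filter (1.04) and with the DESeq2 Wald test (1.03). The second β-catenin gene, ctnnb2, which acts in the zebrafish as maternal β-catenin in axis formation, had 72.2 and 47.0 TPM in the positive libraries and 33.8 and 31.4 TPM in the negative libraries. It was called higher, at 0.90 (SE 0.242, adjusted p 0.0324). That call was lost without positive replicate 1 (0.51), negative replicate 1 (0.87) or negative replicate 2 (0.95), and by limma on the scale log2(TPM + 1) (0.82). AXIN1, the scaffold of the destruction complex, had 27.7 and 26.3 TPM against 25.1 and 16.2 TPM and was not called, at 0.43 (adjusted p 0.18). AXIN2, a feedback target of β-catenin signalling, had 16.7 and 20.7 TPM in the positive libraries and 37.6 and 20.8 TPM in the negative libraries. In TPM only negative replicate 1 stood well apart. In TMM-scaled counts AXIN2 had 61.3 and 65.8 CPM against 113 and 76.4 CPM, and the groups did not overlap. Its log2 fold change of -0.58 (SE 0.212, adjusted p 0.101) was not called.

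Among the nuclear factors, tcf7l1b was called higher and LEF1 lower. The gene tcf7l1b encodes a Tcf factor that represses Wnt targets in the absence of signal, and it had 32.7 and 34.9 TPM in the positive libraries and 22.3 and 17.7 TPM in the negative libraries. Positive libraries were above negative ones, with a log2 fold change of 0.79 (SE 0.165, adjusted p 0.0107); without negative replicate 1 it was 0.85 and without negative replicate 2 0.75, and not called. Its paralog TCF7L1 had 60.3 and 19.7 TPM in the positive libraries and 15.5 and 16.1 TPM in the negative libraries. Positive replicate 1 was 3 times as high as the other positive library, and the log2 fold change of 1.44 (SE 0.444, adjusted p 0.0569) was not called. It was 0.35 without positive replicate 1, and 2.06 and called without positive replicate 2. It was also called with no low-count filter (1.46). LEF1, an activator of Wnt targets in tail and neural tissues, had 20.4 and 24.0 TPM in the positive libraries and 38.3 and 28.1 TPM in the negative libraries. Its groups did not overlap, but the log2 fold change of -0.55 (SE 0.163, adjusted p 0.0498) lay at the threshold: 10 of 12 alternative fits did not call it, and its value in those 12 ran from -0.65 to -0.51. TCF7 and TCF7L2 were not called, at -0.53 (adjusted p 0.277) and -0.17 (adjusted p 0.619).

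Several of these uneven values involved the same library. In 11 of the 66 members, or 16.7%, positive replicate 1 was over 2 times as high as positive replicate 2 in scaled counts, and in 0 members was the reverse true. Among all genes tested the shares were 6.04% and 1.50%. The 11 genes were CTNNB1, TCF7L1, FZD1, fzd6, LRP6, dkk1a, WNT16, sfrp2l, WNT6, WNT3A and WNT5A. Some had few counts in the positive libraries: sfrp2l 31 and 16, WNT6 52 and 12, WNT3A 15 and 3, and WNT5A 13 and 2. In fzd6, a receptor of planar polarity, the levels were 6.32 and 2.25 TPM against 1.50 and 1.84 TPM, and the log2 fold change of 1.40 (adjusted p 0.0745) was not called.

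Other genes of the pathway were counted in 5 lists. Of 14 tested genes for Wnt secretion, ligand spread and co-receptor clearance, 4 were called higher and 1 lower, with a median log2 fold change of 0.34. GPC6 (ENSDARG00000103156), a cell-surface glypican, had 6.75 and 9.73 TPM in the positive libraries and 0.547 and 0.663 TPM in the negative libraries. It was more than 10 times as high in each positive library as in either negative one, and its log2 fold change of 3.76 (SE 0.308, adjusted p 9.00e-05) was the largest of the list. LGR4, an R-spondin receptor, had 9.16 and 9.97 TPM against 4.92 and 4.76 TPM, with a log2 fold change of 1.00 (adjusted p 0.00356), and the Lrp-binding inhibitor gene SOSTDC1 (ENSDARG00000068892) had 6.66 and 6.68 TPM against 3.01 and 3.79 TPM, with a log2 fold change of 0.98 (adjusted p 0.0439). The Wnt deacylase gene notum1b, a feedback inhibitor, was lower, with 2.89 and 2.79 TPM against 10.6 and 7.62 TPM and a log2 fold change of -1.65 (SE 0.236, adjusted p 0.00154). GPC4, the glypican mutated in the zebrafish knypek line with a defect of convergent extension, was the fifth call, named here after its values were seen, with 57.3 and 85.6 TPM against 49.3 and 35.0 TPM and a log2 fold change of 0.78 (adjusted p 0.0339). Without negative replicate 1 the calls of GPC4 (0.95) and SOSTDC1 (0.74) were lost, as they were without negative replicate 2 (0.64 and 1.27), and GPC4 was not called without positive replicate 2 (0.54). The ligand transporter gene WLS and the acyltransferase gene PORCN (ENSDARG00000052455), needed to secrete Wnt ligands, were not called, at -0.35 (adjusted p 0.198) and 0.22 (adjusted p 0.415).

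Of 26 tested genes of the destruction complex and its cytoplasmic partners, 2 were called higher and 2 lower, with a median log2 fold change of 0.25. The DESeq2 Wald test called 6 higher and 3 lower. The scaffold gene APC had 11.4 and 12.2 TPM against 8.62 and 6.86 TPM, with a log2 fold change of 0.64 (adjusted p 0.0292), and the Dishevelled gene dvl2 had 37.8 and 24.6 TPM against 16.6 and 15.9 TPM, with a log2 fold change of 0.98 (adjusted p 0.0239). Both were higher in positive cells. Of 6 tested Naked cuticle IDs, which encode feedback inhibitors that bind Dishevelled, 2 were called lower and 4 were not called. NKD1 had 19.8 and 16.6 TPM against 35.4 and 24.9 TPM, with a log2 fold change of -0.68 (adjusted p 0.0396), and nkd3 (ENSDARG00000013174) had 1.57 and 1.06 TPM against 6.98 and 3.46 TPM, with a log2 fold change of -1.98 (adjusted p 0.0118). Without negative replicate 1 none of the 4 was called (APC 0.72, dvl2 0.92, NKD1 -0.54, nkd3 -1.50). Without negative replicate 2 APC (0.57), dvl2 (1.04) and NKD1 (-0.80) were not called, and NKD1 was not called without positive replicate 2 (-0.53). Of 15 tested nuclear cofactor genes, 1 was called, the corepressor gene CBFA2T2, with 30.9 and 32.6 TPM against 11.8 and 8.79 TPM and a log2 fold change of 1.62 (SE 0.203, adjusted p 0.000765). Of 18 planar polarity genes, the cadherin gene CELSR1 was called higher, at a log2 fold change of 0.61 (adjusted p 0.0339), and its paralog celsr1b lower, at -0.92 (adjusted p 0.0155). CELSR1 was not called without negative replicate 1 (0.66) or 2 (0.57), and celsr1b was not called without negative replicate 1 (-0.94) or 2 (-0.89). VANGL2, a core planar polarity gene, had 37.8 and 35.8 TPM against 31.4 and 27.7 TPM and was not called. On the scales log2(TPM + 1) and log2(TPM + 0.1), limma did not call GPC4 (0.74 and 0.75), SOSTDC1 (0.81 and 0.96), APC (0.56 and 0.61), NKD1 (-0.68 and -0.71), CELSR1 (0.46 and 0.55) or celsr1b (-0.55 and -0.89). With upper-quartile factors SOSTDC1 (0.88), APC (0.54) and CELSR1 (0.51) were not called. In these 4 lists the calls ran from 1 of 15 to 5 of 14 genes, beside 17.1% of all genes tested.

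Of the genes known to respond to Wnt signalling in early embryos, more were called lower than higher. Of the 23 tested, 13 were called lower and 5 higher, beside 8.07% and 9.02% of all genes tested, with a median log2 fold change of -1.05. The mesodermal transcription factor genes tbx16, at -3.43 (SE 0.183, adjusted p 1.70e-05), msgn1, at -3.17 (SE 0.364, adjusted p 0.000484), and tbxta, at -2.62 (SE 0.179, adjusted p 4.20e-05), and the posterior homeobox gene cdx4, at -2.68 (SE 0.187, adjusted p 4.54e-05), had the largest changes. For tbx16 the levels were 9.82 and 10.3 TPM in the positive libraries and 120.0 and 101 TPM in the negative libraries, and for cdx4 they were 53.5 and 56.4 TPM against 346 and 364 TPM. Of the list, tbx16, msgn1 and tbxta are 3 of the 8 presomitic and tailbud markers, all of which were lower, and the part of those cells in these values was not tested. Also called lower were the direct target genes SP5, at -1.25 (SE 0.174, adjusted p 0.00135), and sp5l, at -2.51 (adjusted p 0.000262). These genes and CCND1 are named after their values were seen. The called decreases of cdx1a (-2.21), vent (-1.99) and MYC (ENSDARG00000045695, -1.44) were larger than that of SP5. The cyclin gene CCND1 was lower too. It had 120.0 and 118 TPM against 230.2 and 204 TPM, with a log2 fold change of -0.79 (adjusted p 0.0159). CCND1 was not called without negative replicate 1 (-0.81) or 2 (-0.75). Among the other lower calls, those of TNFRSF19 (-0.90) and ved (-1.30) were lost without negative replicate 1, and those of ved (-1.33) and her5 (-0.94) without negative replicate 2.

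The 5 response genes called higher are named after their values were seen. Both BAMBI genes, which encode a pseudoreceptor that dampens TGF-β and BMP signals, were higher: ENSDARG00000099677 had 99.996 and 111 TPM in the positive libraries and 28.5 and 26.5 TPM in the negative libraries, with a log2 fold change of 1.96 (SE 0.168, adjusted p 0.000111), and ENSDARG00000055381 had 151 and 149 TPM against 66.3 and 68.7 TPM, with a log2 fold change of 1.16 (adjusted p 0.00212). The growth factor gene FGF8 (ENSDARG00000003399), which acts in heart specification, had 60.4 and 89.6 TPM against 25.3 and 29.6 TPM, with a log2 fold change of 1.48 (adjusted p 0.00125). The homeobox gene GBX2 had 69.9 and 108 TPM against 37.8 and 26.2 TPM, with a log2 fold change of 1.49 (adjusted p 0.00186). The last, cdx1b, was below 1 TPM in each library, at 2.04 (adjusted p 0.0176), and its call was lost without negative replicate 1 (2.31), negative replicate 2 (1.83) or positive replicate 2 (1.76), and by limma (0.30 on log2(TPM + 1) and 1.24 on log2(TPM + 0.1)). In the other 4 both positive libraries were above both negative ones by a wide margin.

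**Figure D5:**
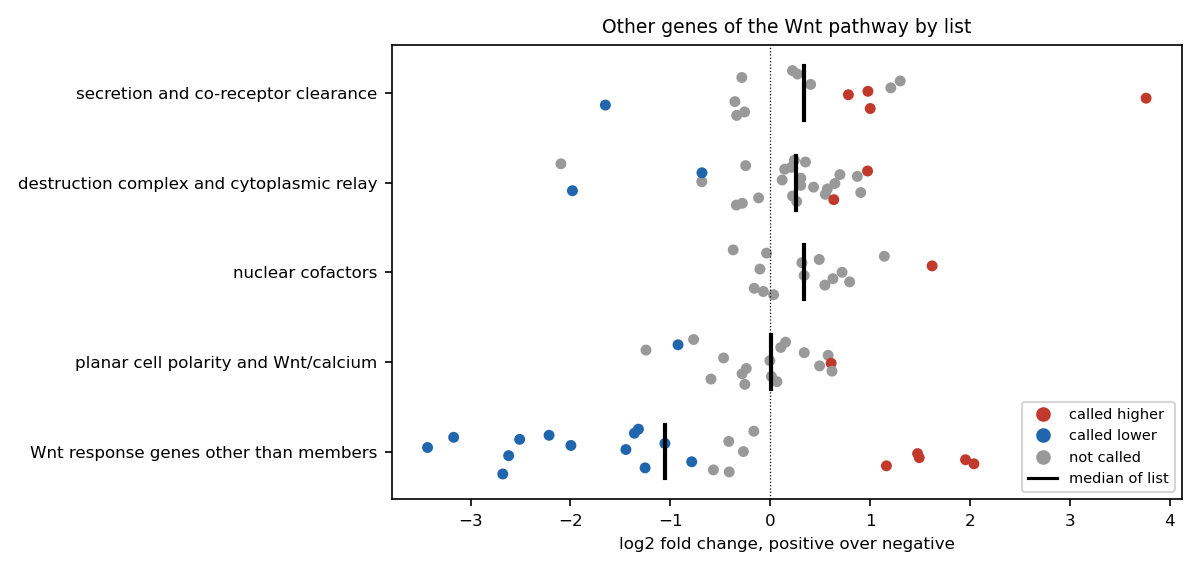
Log2 fold change of positive over negative cells for the tested genes of 5 lists of other Wnt pathway genes, 1 point per gene, with the median of each list as a black line; red points were called higher, blue lower and grey not called. The median of the response genes is -1.05, and the medians of the other 4 lists lie between 0.0052 and 0.34.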

How the data were processed

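Per the labels' protocols, about 50 ng of RNA per sample entered a poly(A)-primed low-input library kit with tagmentation and was read as pairs of 50 nt on a HiSeq 2500. No molecular identifiers are mentioned, so PCR copies may be counted. Salmon 1.2.1 and BWA 0.7.12-r1039 are among the tools in the submitters' processing notes, without their roles. The deposited table holds, per the file headers, an estimated count that the authors made whole (20 entries have a count of 0 and a TPM above 0) and log2(TPM + 1), from which TPM was recovered. Replicate libraries have separate columns. Symbols came from a table that names 23599 of the 25873 IDs, many in human style. A name shared by several IDs applied to 16 of the 66 members, which are given with their ID, and reads of such paralogs can be divided by the counting. The processing notes name the builds Zv9 (danRer7) and GRCz11 (danRer11). Whether counting used strand, and on which of these builds, is not given in the sources used here.

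edgeR 4.0.16 in R 4.3.3 fitted the counts with TMM factors, after filterByExpr at a minimum count of 10 and a minimum total of 15, and its quasi-likelihood F test gave p-values, with Benjamini-Hochberg adjustment over all genes tested. Each SE is the absolute log2 change over the root of F. The fit was tested on simulated data. Alternatives were other size factors, other filters, DESeq2 1.42.0, limma 3.58.1 on log2(TPM + 1) and log2(TPM + 0.1), a block for the replicate number, fits without 1 library each, and an adjusted p under 0.01. A crossed block was chosen after seeing the data. Full values are given for called members and the most abundant member of each role, and at most the 4 largest calls of each pathway list, with exceptions stated. Pathway lists were matched by symbol, by symbol without the paralog letter or by RefSeq synonym, and list entries without a match are not analysed here. The members, lists and rules were chosen with earlier results of these data known. RefSeq names and neighbours are from assembly GRCz12tu.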

Additional observations from a re-analysis of the deposited data

How the results depend on the processing

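No called member, called gene of a pathway list or most abundant member of a role changed direction in an alternative fit. The median of the members stayed negative. The median of all genes changed sign in some fits, such as 0.0077 with DESeq2 size factors. Of the 31 called members, 14 were called in each of the 12 alternative fits. Leaving out 1 library each gave 5 to 16 members called higher and 11 to 20 lower, the low ends without a negative library, where the spread rests on the other pair. The same fits gave 852 to 2446 genes higher and 747 to 1846 lower, and a median of -0.50 to -0.16 for the members, lowest without positive replicate 1. At an adjusted p under 0.01 there were 6 members higher and 11 lower, and 966 and 784 of all genes. With at least 1 CPM in 2 libraries, 59 members were tested, and their median was -0.020. Upper-quartile factors moved the median of all genes from -0.0087 to -0.109 and that of the members to -0.39. They left the members at 11 higher and 20 lower. The calls among all genes went from 1721 higher and 1541 lower to 1508 higher and 1882 lower. The replicate block gave 14 members higher and 19 lower; it called CTNNB1 and TCF7L1 and did not call LEF1 or CELSR1. The labels do not say that a number marks shared embryos; the deviations of same-numbered libraries correlated at -0.100, and the block crossing the numbers, chosen after seeing the data, gave 16 and 21.

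Small list counts moved most; the cause was not tested. For the destruction complex list, higher calls were 4 with DESeq2 size factors, 1 with upper-quartile factors, 5 with no low-count filter, 6 with the DESeq2 Wald test, 1 with either limma fit and 0 at an adjusted p under 0.01; lower calls were 1 with limma on log2(TPM + 1) and 0 at an adjusted p under 0.01. For secretion, higher calls were 2 with either limma fit and 2 at an adjusted p under 0.01. For nuclear cofactors, they were 2 with no low-count filter and 2 with either limma fit. For planar polarity, higher calls were 0 and lower calls 2 with upper-quartile factors, both were 0 with either limma fit and at an adjusted p under 0.01, and higher calls were 0 with the replicate block. Leaving out 1 library gave, higher and lower, 2 to 4 and 1 to 1 for secretion, 0 to 7 and 0 to 3 for the destruction complex, 1 to 5 higher for nuclear cofactors, 0 to 3 and 0 to 2 for planar polarity. Depth limits the least expressed members, such as WNT5A and WNT3A with 2 to 26 counts per library.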
